A study of Homo sapiens with 6 samples.

Results

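Of the 200023 peaks of polyadenylated 3′ ends listed for IMR-32 cells, 2405 had their summit in a processed pseudogene or up to 600 bp past its 3′ end. The pseudogenes were the GENCODE genes of type processed_pseudogene or transcribed_processed_pseudogene. With −log10 q of at least 5, the cutoff that the study set for its peaks, 1841 of the 138277 peaks on chromosomes were such pseudogene peaks (1.33%, 95% interval 1.27 to 1.39), while the pseudogenes and the 600 bp past them held 0.749% of the bases. The 564 pseudogene peaks under the cutoff (23.5%) were counted but not described further, and the values nearest to the cutoff on either side were 5.02 and 4.99.

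IMR-32 is a human neuroblastoma cell line. Poly(A) 3′-seq, in which each read starts where a transcript meets its poly(A) tail, was run on 6 libraries to ask where transcripts end when the kinases CDK12 and CDK13 are inhibited. Cells received the solvent DMSO, the covalent CDK12 and CDK13 inhibitor THZ531 at 400 nM for 2 h, or the same dose for 6 h, with 2 replicates per condition. The authors called the peaks once on the merged reads of all samples, so no value belongs to a single library, DMSO and THZ531 could not be compared, and no peak has a replicate error. Which libraries went into the merge is not given in the sources used here, and the 6 IMR-32 libraries are assumed. The sources give neither the sharing of the merged reads among libraries nor the depth of each, and a peak may have been present in 1 condition only. The list gives no strand, so a peak was read on the strand of its pseudogene. All 14 markers of adrenergic neuroblastoma cells that were checked had a peak at a transcript end, with 19 to 123 reads at the summit, among them MYCN with 100 reads and ISL1 with 55. Of 11 markers of fibroblasts, blood, epithelium and liver, 4 had such a peak, and the highest of these was COL1A1 with 15 reads.

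A processed pseudogene, or retrocopy, arises when the reverse transcriptase of a mobile element copies a cellular messenger RNA and the copy is inserted elsewhere in the genome. The copy has no introns and often keeps the 3′ end of its parent with a remnant of the poly(A) tail as a run of A. Such copies are therefore able to carry the polyadenylation signal of the parent, a hexamer such as AATAAA upstream of the cleavage site that the cleavage and polyadenylation machinery recognises. The run of A may also prime reverse transcription from within an RNA, and reads from a near-identical parent may be placed on the copy. Most copies come from genes that are abundantly expressed in the germ line, such as those of ribosomal proteins, and many lie in introns of other genes.

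The copied 3′ ends of 7 pseudogenes are shown beside those of their parents, because the results turn on what a copy kept of the hexamer and of the A run. Each pseudogene is given by the 30 bases before and the 30 bases after the place of an annotated parental end, and each parent by the 30 bases before that end. The alignment had to stop within 20 bases of the parental end, and the place was counted on from there. The last bases of the parent may therefore be missing from a copy. Capitals mark AATAAA or ATTAAA where present, and otherwise other hexamers of the 12 that were searched.
SMPD4BP: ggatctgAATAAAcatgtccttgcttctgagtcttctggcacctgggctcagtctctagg
SMPD4: ggatctgAATAAAcatgtccttgcttctga
YBX1P10: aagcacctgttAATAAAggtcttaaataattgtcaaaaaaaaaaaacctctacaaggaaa
YBX1: aagcacctgttAATAAAggtcttaaataat
EEF1A1P5: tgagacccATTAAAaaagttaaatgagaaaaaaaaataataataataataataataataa
EEF1A1: tgagacccATTAAAaaagttaaatgagaaa
HMGB1P24: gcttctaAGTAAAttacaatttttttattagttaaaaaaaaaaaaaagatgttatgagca
HMGB1: gcttctaAGTAAATACAattttttttatta
TLK2P1: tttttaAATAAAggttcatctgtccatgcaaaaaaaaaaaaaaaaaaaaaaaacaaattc
TLK2: tttttaAATAAAggttcatctgtccatgca
RPL12P4: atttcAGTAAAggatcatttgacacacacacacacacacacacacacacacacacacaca
RPL12: atttcAATAAAggatcatttgacaactggt
RPS27P9: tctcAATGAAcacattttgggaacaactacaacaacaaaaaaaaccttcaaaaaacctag
RPS27: tctcAATAAAcacattttggataaatcctg

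The first 3 pairs belong to 3 of the tallest pseudogene peaks that ended at a copied parental end, 1 for each parent. On GRCh38 the pseudogene sequences lie at chr2:131521544-131521603 on the plus strand (SMPD4BP), chr9:35970914-35970973 on the minus strand (YBX1P10) and chr9:133021140-133021199 on the plus strand (EEF1A1P5). The peaks over them had 72, 61 and 61 reads. All 3 matched the parent at each of the 30 bases before the end. The 30 bases past the end held 18 A in YBX1P10 and 22 in EEF1A1P5, and 3 in SMPD4BP. SMPD4BP is annotated as a long transcribed gene over chr2:131492813-131521573 and held 5 peaks. Whether it arose as a retrocopy was not tested.

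HMGB1P24 (chr17:37143195-37143254, minus strand) and TLK2P1 (chr17:34036674-34036733, minus strand) are examples of copied ends whose peak, of 36 reads each, had 100 bases around the summit that matched no other place in the genome at 90 or more bases. HMGB1P24 differed from HMGB1, which encodes a DNA-bending chromatin protein, at 4 of the 30 bases before the end and TLK2P1 from TLK2, a chromatin assembly kinase gene, at none. The 30 bases past the end held 18 and 26 A. The search for other places allowed no gaps. With gaps allowed, TLK2P1 aligned to a coding transcript over at least 60 bases at 95% identity, and HMGB1P24 did not. RPL12P4 (chr20:55075155-55075214, plus strand) and RPS27P9 (chr1:37556534-37556593, plus strand) were the most identical copies outside other genes that had lost the AATAAA of the parent and had no peak. RPL12P4 has AGTAAA and RPS27P9 AATGAA at the place of the parental hexamer, both also among the 12 hexamers. Compared without gaps, they differed from the parent at 7 and 8 of the 30 bases. Apart from the hexamer, these differences lie in the last bases, so both copies may stop short of the parental end.

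Pseudogene peaks were found at 1417 of the 10658 annotated processed pseudogenes (13.3%, 12.7 to 13.95), of which 1209 had a single peak, 148 had 2 and 60 had 3 or more. Genes of the transcribed type, for which GENCODE has transcript evidence, had a peak in 192 of 512 cases (37.5%, 33.4 to 41.8), and those of the other type in 1225 of 10146 (12.1%, 11.5 to 12.7). The transcribed genes are longer, with a median of 2000 bp against 571 bp, and some are annotated with introns. As a result 253 of their 474 peaks (53.4%) lay in an intron of the pseudogene's own annotation, away from the retrocopy, compared with 35 of 1367 peaks of the other type (2.56%). Of these 1367 peaks, 1148 (84.0%) lay at an annotated end of the pseudogene, from 200 bp before to 600 bp after it. The rule admits summits only in the gene or up to 600 bp past it. In genes of this length, most places that the rule admits therefore count as an end, and no expected share was computed. The 3′ edge of the peak lay a median of 146 bp past that end.

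The height of a peak is given as reads at the summit, the number of reads, each extended to 100 bp, that cover it, as recovered from the fold and −log10 p of the peak caller. Pseudogene peaks had a median of 14 reads (quartiles 10 and 21, range 7 to 189), and 32 of them had 50 or more. The other peaks had a median of 12 reads in introns, 12 outside genes, 17 in exons and 18 at transcript ends. The typical pseudogene peak thus lay between the intronic and the transcript-end peaks of the list, whose highest summit had 200 reads. Whether duplicate reads were dropped before peak calling is not given. If they were, heights count distinct read positions and have an upper limit, so comparisons of height need not be comparisons of abundance.

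Signals for polyadenylation were common upstream of pseudogene peaks. A hexamer was present in the 100 bp that end at the 3′ edge of 1353 peaks (73.5%, 71.4 to 75.5) and on the opposite strand of the same bases in 809 (43.9%, 41.7 to 46.2). The 12 hexamers searched were AATAAA and ATTAAA, together with AAGAAA and AATACA, then AATAGA and AATATA, then AATGAA and ACTAAA, then AGTAAA and CATAAA, and lastly GATAAA and TATAAA, where overlapping matches count once per peak. The canonical AATAAA was present at 781 pseudogene peaks (42.4%), against 12.4% on the opposite strand. Other peaks had AATAAA in 26.7% of cases in introns, 27.7% in exons and 47.5% at transcript ends. The difference was 15.7 percentage points from intronic peaks (95% interval 13.5 to 18.03) and −5.13 points from transcript-end peaks (−7.45 to −2.77). In their share with AATAAA, pseudogene peaks were therefore nearer to annotated transcript ends than to introns. These intervals, like all intervals given here, cover counting error only, and peaks are not replicates of a condition.

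Runs of A within 50 bp past the 3′ edge were less common at pseudogene peaks than at intronic peaks. At least 22 A in 25 bases, a stretch that the study looked for, beside hexamers, to find false positive peaks, occurred within 50 bp past the 3′ edge of 34 pseudogene peaks (1.85%, 1.32 to 2.57) and of 1.195% on the opposite strand, compared with 5.89% of other intronic peaks. The study dropped peaks that had this stretch and none of its motifs, but the list used here still holds such peaks. They were 12 of the pseudogene peaks (0.652%) and 3605 of 74947 other intronic peaks (4.81%). The difference at 22 A thus lay largely in peaks that this rule would drop. With a looser limit of 18 A in 25, the shares were 12.7% for pseudogene peaks and 4.78% on the opposite strand. They were 28.8% for intronic peaks and 7.69% for transcript-end peaks. Searched 50 bp to either side of the edge, 22 A in 25 occurred at 9.72% of pseudogene peaks. That search was not compared with intronic peaks, so the difference holds for bases past the edge only. No hexamer and no looser A stretch was found at 39 of the 687 peaks that ended at a copied parental end, described next, and at 377 of the other 1154.

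A parent was found for 1767 of the 1841 peaks (96.0%) by aligning the exons of each pseudogene to the coding transcripts of all protein-coding genes. The 3′ edge of 1248 peaks could be placed on the parent transcript, and 687 of them lay within 50 bases of an annotated end of the parent (55.0%, 52.3 to 57.8, or 37.3% of all 1841 peaks). Of these 687, the median edge lay 7 bases past the parental end, with quartiles of 0 and 14.5 bases. The edges were not spread evenly around the end: 273 fell on bases 0 to 9 past it and 197 on bases 10 to 19, against 10 on bases 30 to 39. Another 282 peaks (22.6% of those placed) lay more than 500 bases upstream of the parental end. Ends of all coding transcripts of the parent were counted, a median of 3 for each parent, and with the canonical transcript alone the share of all peaks ending there was 21.0%.

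**Figure D1:**
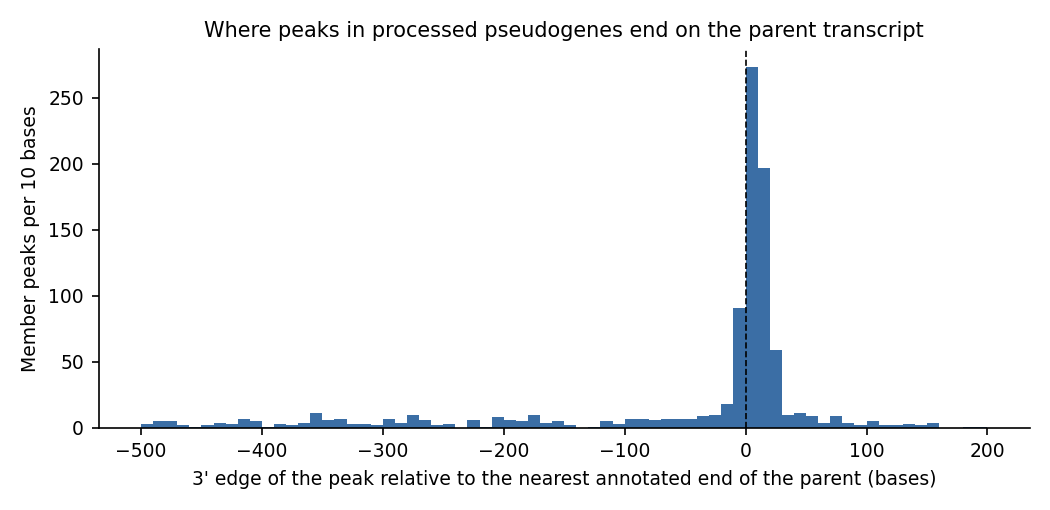
Number of pseudogene peaks per 10 bases (vertical axis) by the distance in bases of the 3′ edge of the peak from the nearest annotated end of the parent transcript (horizontal axis, positive values past the end, dashed line at 0). The 2 highest bars hold 273 and 197 peaks and stand just past the end, while other bins hold far fewer.

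Peaks that ended at a copied parental end differed from the other pseudogene peaks in sequence. Such an end holds what the copy kept of the parental hexamer, so a higher share with a hexamer follows in part from how these peaks were picked. Copied ends with and without a peak are set side by side further below. A hexamer was present at 643 of 687 (93.6%) compared with 710 of 1154 (61.5%), a difference of 32.1 points (28.6 to 35.3). AATAAA was present at 71.6% against 25.04% (difference 46.6 points, 42.2 to 50.6), and the opposite strand had it at 9.61% and 14.04%. The looser A stretch was present at 13.97% and 11.9%, with an interval of the difference from −1.01 to 5.39 points. The peaks at copied ends were taller, with a median of 17 reads against 13, and more identical to the parent, with a median of 94.9% against 90.8%. A place elsewhere in the genome matching at 95 or more of the 100 bases around the summit was also more common for them (57.1% against 40.6%), and what part this had in their height was not tested. In 377 of the 687 cases (54.9%) the edge also lay within 50 bases of the edge of a peak of the list in the parent itself.

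Seen from the pseudogenes, the copy of a parental end could be located in 3881, and 552 of them had a pseudogene peak there (14.2%, 13.2 to 15.4). An end counted as located where the alignment stopped within 20 bases of it, so some copies may lack its last bases. This share was higher the more identical the pseudogene was to its parent. It was 1.27% under 85% identity, 5.79% from 85 to 90%, 16.9% from 90 to 95%, 47.7% from 95 to 98% and 79.7% from 98 to 100%. Where the parent has AATAAA before its end and the copy kept it, 399 of 2216 copied ends had a peak (18.01%, 16.5 to 19.7), and where the copy had lost it, 35 of 761 (4.60%, 3.33 to 6.33). The difference was 13.4 points (11.1 to 15.5). Of the 761 ends without AATAAA, 505 had another of the 12 hexamers, and 5.35% of these had a peak, compared with 3.13% of the 256 that had none.

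Copies that kept AATAAA are also more identical to their parent, so kept and lost copies were set side by side within ranges of identity. At 90 to 95% identity, 18.3% of kept and 8.02% of lost hexamers had a peak (difference 10.2 points, 4.78 to 14.5), and at 95 to 98% identity 49.6% and 28.9% (20.7 points, 3.802 to 34.0). From 85 to 90% the values were 6.84% and 1.48% (5.36 points, 2.03 to 7.99). Under 85% they were 1.77% and 1.52%, with an interval of the difference from −1.89 to 1.95 points, and above 98% identity only 4 copies had lost the hexamer. Kept copies were thus more often the site of a peak in the ranges from 85 to 98% identity, and no difference was detectable below them.

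A run of A past the copied end, the remnant of the inserted tail, went with a peak as well, and within ranges of identity the difference was larger than the counting error from 90 to 98%. Of 908 copied ends followed within 50 bp by 18 or more A among 25 bases, 25.1% had a peak (22.4 to 28.03), compared with 10.9% of the 2973 without (9.83 to 12.1). The difference was 11.0 points at 90 to 95% identity (5.84 to 16.5) and 12.2 points at 95 to 98% (1.71 to 22.3). The intervals of the difference held 0 in the other ranges, which were 1.14 points under 85% (−0.457 to 4.56), 3.20 points from 85 to 90% (−0.289 to 7.82) and 4.40 points from 98 to 100% (−9.55 to 18.4).

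**Figure D2:**
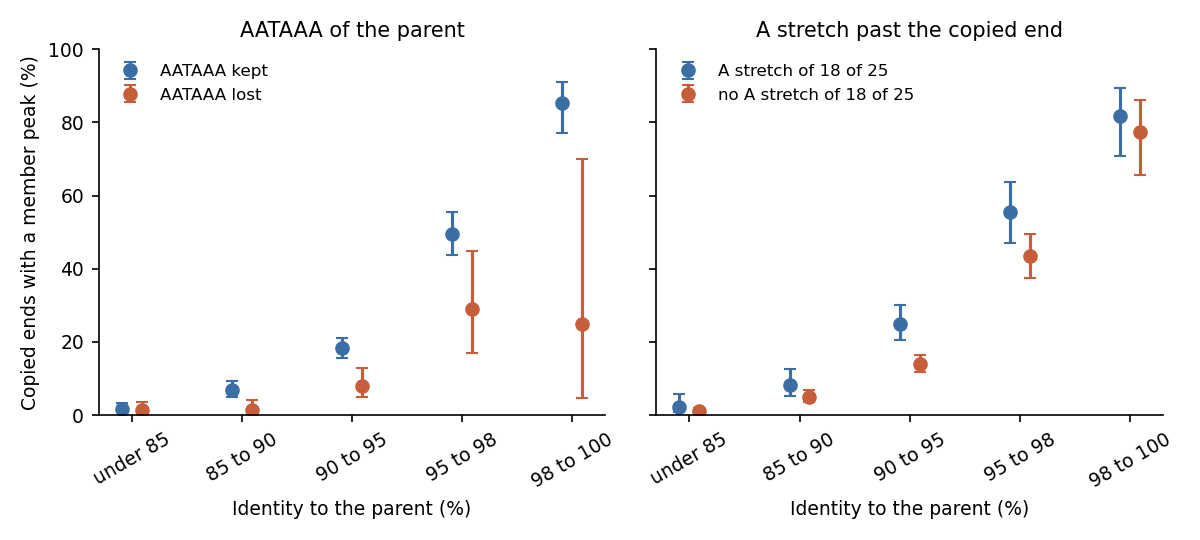
Percentage of copied parental ends with a pseudogene peak (vertical axes) by identity of the pseudogene to its parent in percent (horizontal axes), for copies that kept or lost the parental AATAAA (left) and for copies with or without a run of 18 or more A among 25 bases past the end (right). Points are shares and bars 95% Wilson intervals for counting error; at 95 to 98% identity the shares are 49.6% and 28.9% on the left and 55.6% and 43.4% on the right.

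Because a read of a parent may be placed on a near-identical copy, the 100 bases around each summit were searched for in the whole genome without gaps. Another place matched at 95 or more bases for 860 of the 1841 pseudogene peaks (46.7%, 44.4 to 49), compared with 11.8% of other intronic peaks, 24.1% of other peaks outside genes, 8.36% in exons and 7.58% at transcript ends. All 100 bases matched elsewhere for 262 (14.2%). The parent gene itself was such a place for 467 of the 860 (54.3%), and what lay at the other matches was not examined. Height went with this match: the median was 13 reads where the best other match was under 90 bases, 14 at 95 to 98, 17 at 99 and 17.5 at 100. At least 30 reads were reached by 6.08% of peaks with a best match under 90 (4.56 to 8.06) and by 27.5% of those with a full match (22.4 to 33.2). Reads placed at several positions were kept at mapping, and how many reads of a given peak came from another copy was not tested.

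**Figure D3:**
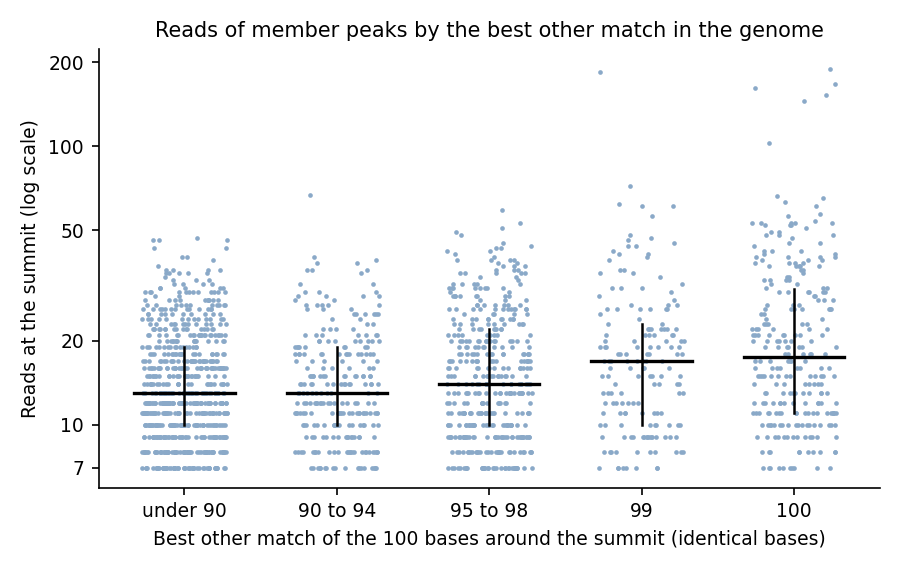
Reads at the summit (vertical axis, log scale) of each of the 1841 pseudogene peaks by the number of identical bases in the best other match of the 100 bases around the summit (horizontal axis). Points are single peaks, horizontal lines medians and vertical lines quartiles; the median is 13 reads with a best match under 90 bases and 17.5 with all 100.

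The copied hexamer and the match elsewhere were also crossed. Among copied ends whose 100 bases had no match of 90 or more, 59 of 1160 that kept AATAAA had a peak (5.09%) and 14 of 550 that lost it (2.55%), a difference of 2.54 points (0.519 to 4.29). At a best match of 95 to 98 bases the shares were 47.5% and 16.9% (difference 30.6 points, 18.1 to 39.6), and at 99 or 100 bases 52.5% and 5.13% (47.4 points, 33.7 to 55.2). At 90 to 94 bases they were 11.0% and 7.96%, with an interval of the difference from −3.88 to 7.95 points. For kept hexamers the share with a peak was thus higher at each step of the match, whereas for lost hexamers it was highest at 95 to 98 bases, and at 99 or 100 bases 2 of 39 had a peak.

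Of the 1841 peaks, 724 had no other place matching at 90 bases (39.3%). They still had a hexamer in 71.7% of cases and AATAAA in 37.4%, and 176 of them (24.3%) ended at a copied parental end. The search without gaps misses a copy where the window holds an insertion or runs past the copied end. It also starts from short exact matches, so a few places near the limit of 90 bases can be missed. With gaps allowed, 182 of the 724 (25.1%, 22.1 to 28.4) aligned to a coding transcript over at least 60 bases at 95% identity, and 78 of the 176 did (44.3%, 37.2 to 51.7). Peaks of this set are thus not all free of near-identical sequence elsewhere.

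Parents that were themselves detected had more pseudogenes with a peak. A parent with a peak at a transcript end had 1301 of its 8611 pseudogenes with a peak (15.1%, 14.4 to 15.9), and a parent without one 63 of 1086 (5.80%, 4.56 to 7.35). The difference was 9.31 points (7.59 to 10.8). Reads at the pseudogene peak and reads at the tallest transcript end of the parent were only weakly related (Spearman's rho 0.138 across 1645 peaks, and 0.0691 across the 633 with no other match of 90 bases). These points share the pooled libraries and, within a family, the parent. The pseudogene peak had fewer reads than the parent in 1541 of 1645 cases (93.7%), and the parents' tallest ends had a median of 47 reads.

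Identity to the parent separated pseudogenes with and without peaks over the whole set too. The median identity was 93.5% for the 1364 pseudogenes with a peak and a parent, and 86.7% for the 8333 without. The share with a peak was 5.04% under 80% identity, 9.93% from 85 to 90%, 16.3% from 90 to 95%, 39.0% from 95 to 98% and 57.6% from 98 to 100%. Identity moved with the match elsewhere and with the kept hexamer described above, and the part of each in this gradient was not tested.

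By family of the parent, the highest shares were found for translation factors and for chromatin-bound and acidic nuclear proteins. Copies of translation and nascent chain factors such as EEF1A1 had a peak in 57 of 200 cases (28.5%, 22.7 to 35.1), and copies of chromatin-bound and acidic nuclear proteins such as HMGB1, NPM1 and PTMA in 84 of 329 (25.5%, 21.1 to 30.5). The largest family in number was that of the cytosolic ribosomal proteins, with 436 of 2175 pseudogenes (20.05%, 18.4 to 21.8), which made up 30.8% of all pseudogenes with a peak. Copies of proteasome and ubiquitin genes followed with 18.5%, chaperones and prolyl isomerases with 18.4%, RNA-binding and splicing proteins with 18.4%, glycolysis with 16.4%, respiration and mitochondrial carriers with 13.7% and the cytoskeleton with 13.4%. The intervals of the families from ribosomal proteins to glycolysis overlap. All other parents together had 552 of 5429 (10.2%, 9.39 to 11.0).

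Families also differed in what their peaks looked like. The median height was 17 reads for translation factors and 16 for ribosomal proteins, and 11 for RNA-binding proteins and 9 for the cytoskeleton. A match of 95 bases elsewhere was found for 63.4% of the peaks of translation factor copies and 17.5% of those of cytoskeleton copies. Of the 63 cytoskeleton peaks, 28 lay in 1 long gene, ENSG00000286215, described at the end, so both cytoskeleton values rest in large part on it. The median identity over all copies was highest for RNA-binding proteins (90.7%), followed by translation factors (89.8%), while chaperones and prolyl isomerases and ribosomal proteins both had 88.8%, and it was 86.1% for respiration genes. The order of families by identity was therefore not the order by share with a peak.

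**Figure D4:**
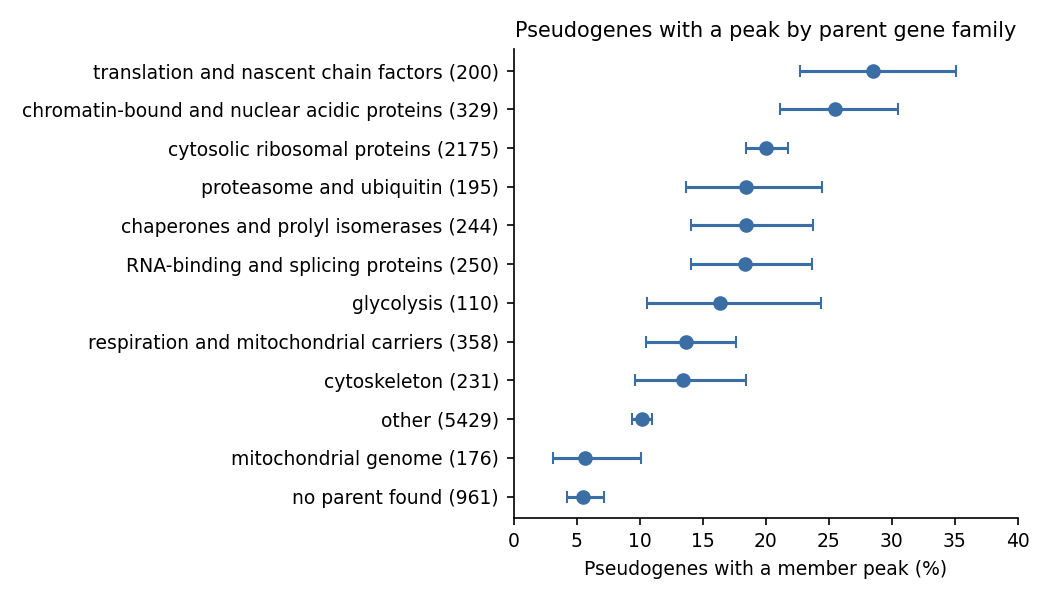
Percentage of pseudogenes with a peak (horizontal axis) for each family of parent genes (vertical axis, number of pseudogenes in parentheses). Points are shares and bars 95% Wilson intervals for counting error; translation and nascent chain factors are highest at 28.5% and ribosomal proteins stand at 20.05%, compared with 10.2% for all other parents.

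Among single parents, the ribosomal protein gene RPL7A had the most copies with a peak, 26 of 80 (32.5%), and 24 of its 29 peaks ended at a copied parental end. RPL23A, another ribosomal protein gene of the large subunit, had 22 of 98 (22.4%), RPS26 19 of 64 (29.7%) and RPS2 17 of 64 (26.6%), as many as RPL21 with 17 of 149 (11.4%). HMGB1 had 22 of 49 (44.9%) and NPM1, which encodes the nucleolar chaperone nucleophosmin, 18 of 50 (36.0%). The peaks of HMGB1 copies ranged from 7 to 67 reads with a median of 22, and 8 of 30 ended at a copied end. Those of RPL7A copies ranged from 7 to 48 reads with a median of 13. The 6 leading parents accounted for 124 of the 1417 pseudogenes with a peak (8.75%), and 636 of 3100 parents had at least 1. No least share of a pseudogene had to align, so a gene counted for a parent may match it in part only. CENPBD2P is counted for RPL23A with 6 peaks, none placed on that parent. ENSG00000270533 is counted for RPL7A at 81.6% identity, with a peak that matched the mitochondrial genome.

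The highest summits of all lay in ENSG00000230021, a transcribed gene of 14 peaks on chromosome 1 (chr1:586071-827796). Of these, 7 within chr1:629092-634913 had 103 to 189 reads with a median of 162, and their 100 bases matched the mitochondrial genome at 99 or 100 bases. Peaks on the mitochondrial genome itself had 191 to 200 reads in 5 cases. This stretch of chromosome 1 holds a copy of mitochondrial DNA, so the gene's name as a processed pseudogene does not describe the bases under these summits. In all, 13 pseudogene peaks matched the mitochondrial genome at 95 or more bases, and outside this gene they had 7 to 42 reads. Copies whose parent was a gene of the mitochondrial genome, such as MTCO1P40 with 17 reads, had a peak in 10 of 176 cases (5.68%).

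Below it, the tallest peaks were those of 11 other pseudogenes. SMPD4BP, related to the sphingomyelinase gene SMPD4, had 72 reads, HMGB1P6 67, FABP5P7 66, RPL13P12 65, RPS23P8 63, RPS28P7 62, and YBX1P10, ENSG00000279483 and EEF1A1P5 61 each. SRP14P2, a copy of a signal recognition particle gene, had 59 and HMGB1P10 57. All of these 11 had a hexamer upstream. All but HMGB1P6, whose best match was 90, matched another place at 98 to 100 of 100 bases. Parents had fewer reads than the copy in the case of YBX1 (15), a cold shock domain protein gene, SMPD4 (29), FABP5 (43), SRP14 (57) and EEF1A1 (58). The parents of the other copies had more, among them RPL41 (90) and HMGB1 (92). In 8 of these 11 the edge lay within 20 bases of a copied parental end. The exceptions RPS23P8, RPS28P7 and HMGB1P10 had their edge at −171, −918 and −328 bases relative to it, but 5, 7 and 21 bases from the edge of a peak of the list in the parent.

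Among peaks with no other place matching at 90 bases, and leaving aside those in exons or at transcript ends of other genes, the tallest were found at ENSG00000226396, a copy of RPS14 in an intron of MICOS10, and ENSG00000231416, a copy of RPL34 in an intron of NUP210L, with 46 reads each. RPS20P22, in an intron of the receptor tyrosine kinase gene FGFR1, had 43, SSR4P1 40, ENSG00000251484, a copy of PCBP1, 37, and PLEKHA8P1, HMGB1P24 and TLK2P1 36 each. ENSG00000231416 had no hexamer and was the only 1 of the 8 without. Identity to the parent ranged from 83.3% for RPS20P22 to 98.6% for TLK2P1, and no parent was found for SSR4P1. With gaps allowed, 3 of the 8 aligned to a coding transcript over 60 bases at 95% identity: ENSG00000226396, PLEKHA8P1 and TLK2P1.

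The transcribed type held further tall peaks. HMGB1P5 had 53 reads, RPL6P27 51, PTMAP5 49 and GTF2IP4 44, and each matched another place, the parent included, at all 100 bases. PTMAP5, a copy of the prothymosin alpha gene, had its edge 1 base before an annotated end of PTMA and 1 base from a peak of PTMA, which had 78 reads. GTF2IP4 is related to the transcription factor gene GTF2I at 99.8% identity and held 9 peaks. It is annotated over chr7:73154938-73207283, and whether it arose as a retrocopy was not tested.

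Of the 1841 peaks, 859 lay in an intron of another gene (46.7%, 44.4 to 48.9), 777 in no other gene, 140 at a transcript end of another gene and 63 in an exon of another gene. Introns matter to the study's question, which concerned polyadenylation inside genes under THZ531, because a peak in a retrocopy can be counted as an intronic site of its host. The host was protein-coding for 681 of the 859 (79.3%). The pseudogene lay on the opposite strand in 430 cases (50.1%) and on the same strand in 383 (44.6%), with hosts on both strands in 46.

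A pseudogene was more often the site of a peak when it lay on the same strand as its host. Pseudogenes in introns had a peak in 263 of 1520 cases on the same strand as the host (17.3%, 15.5 to 19.3) and 315 of 2526 on the opposite strand (12.5%, 11.2 to 13.8), and those in no other gene in 497 of 5287 (9.40%, 8.64 to 10.2). Where the host had a peak at a transcript end, the shares were 23.9% on the same and 15.5% on the opposite strand (difference 8.38 points, 5.05 to 11.8). Where it had none, they were 8.75% and 7.69%, with an interval of the difference from −1.60 to 3.88 points. At copied parental ends, 18.2% had a peak on the same strand, 12.6% on the opposite strand and 12.4% without a host.

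Same-strand and opposite-strand peaks differed in sequence as well. The looser A stretch followed 71 of 383 same-strand peaks (18.5%) and 38 of 430 opposite-strand peaks (8.84%), a difference of 9.70 points (5.0 to 14.5). Read on the strand opposite to the pseudogene, it followed 1.83% and 8.14%. AATAAA preceded 47.3% and 40% (difference 7.26 points, 0.435 to 14.002), and 7.31% and 13.5% when read on the strand opposite to the pseudogene. No other match of 90 bases was found for 49.6% and 34.2% (15.4 points, 8.64 to 22.02). The share ending at a copied parental end was 37.3% and 40.9%, with an interval of the difference from −10.2 to 3.13 points. Median height was 13 and 14 reads. Same-strand peaks were therefore more often in sequence without a near copy and, on the pseudogene's strand, more often followed by A. Opposite-strand peaks had similar shares with the A stretch on both strands. As the list has no strand, which peaks of either group lie on the host's RNA was not tested.

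Pseudogene peaks made up a small part of all intronic peaks, but a larger part of the tall intronic peaks. They were 185 of 23881 intronic peaks under 10 reads (0.775%, 0.671 to 0.894), 2.71% of those with 30 to 49 reads and 13 of 301 with 50 or more (4.32%, 2.54 to 7.25). Outside genes the share went from 4.89% under 10 reads to 11.3% at 50 or more (17 of 151, 7.15 to 17.3). Of these 17 peaks, 6 belong to the copy of mitochondrial DNA in ENSG00000230021, and without pseudogene peaks that matched the mitochondrial genome the share at 50 or more reads was 7.59% (11 of 145, 4.29 to 13.1), below the 9.87% at 30 to 49 reads. Leaving these out was chosen after the data were seen. At transcript ends the share was 0.580% under 10 reads and 0.167% at 50 or more, and in exons none of the 327 peaks with 50 or more reads was a pseudogene peak, with an upper bound of 1.16%.

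**Figure D5:**
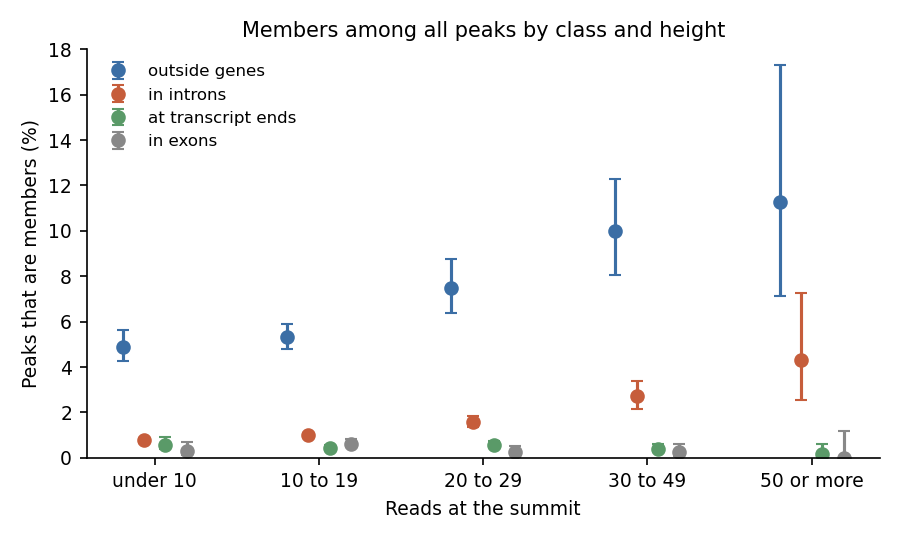
Percentage of peaks that are pseudogene peaks (vertical axis) by reads at the summit (horizontal axis) for peaks outside genes, in introns, at transcript ends and in exons. Points are shares and bars 95% Wilson intervals for counting error; the share goes from 4.89% to 11.3% outside genes, or to 7.59% without pseudogene peaks that matched the mitochondrial genome, and from 0.775% to 4.32% in introns.

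The 859 peaks lay in introns of 683 hosts, of which 496 had a peak at a transcript end. Hosts had a median of 8 intronic peaks (quartiles 3 and 15.5). The pseudogene peak was the only intronic peak of 84 hosts and the tallest in 207 of the 599 with at least 2 (34.6%, 30.9 to 38.5). Many hosts had few intronic peaks and some held several pseudogene peaks, such as THSD4 with 3. The share to be had by chance was not computed. The hosts named next are those of the 5 tallest pseudogene peaks in introns, so the height of these peaks in their hosts is a description. HMGB1P6, with 67 reads, lies in THSD4, where the highest other intronic peak had 39 reads and the tallest transcript end 10. FABP5P7, a copy of a fatty acid-binding protein gene, had 66 reads in an intron of the syntaxin gene STX3, against 11 for the highest other intronic peak and 24 at the end of STX3. The copy of RPL41 in the diacylglycerol kinase gene DGKI, ENSG00000279483, had 61 reads, against 26 for the highest of the other intronic peaks in a host with 38 intronic peaks, and 17 at its end. RPS28P7 in the noncoding host MIR4300HG had 62 reads and YBX1P10 in the noncoding host ENSG00000290538 had 61, where it was the only intronic peak of the host, and neither host had a peak at its end. FABP5P7, RPS28P7, YBX1P10 and ENSG00000279483 lie on the strand opposite to the host, and THSD4 is 1 of several hosts of HMGB1P6, on both strands.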

How the data were processed

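As the study's methods describe, poly(A) 3′-seq reads of IMR-32 cells were trimmed by the authors, mapped to GRCh38, with reads of several placements kept, and merged over all samples, and peaks were called once with no control library. The submitters' processing notes name STAR 2.5.1b, MACS2 2.1.1, deepTools 2.5.4 and SAMtools. The deposited list gives for each peak a fold enrichment, the ratio of reads plus 1 to local background plus 1, and the −log10 p-value, both made by the authors' peak caller. It also gives the −log10 q-value and, as the deposited score, 10 times this value cut to a whole number, and the offset of the summit. The score was not used. No column belongs to 1 library and no comparison between treatments was made.

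Reads at the summit and background were solved from the fold and −log10 p, given as a Poisson tail (largest misfit 0.000172, and 100% of 20000 simulated peaks recovered). Peaks on chromosomes with −log10 q of at least 5 were kept, and 413 peaks on other contigs were left out. Annotation was GENCODE 44. Parents were found with BLAST+ 2.17.0 (e-value 1e-20) among 19353 canonical coding transcripts, as the transcript with the largest summed bit score over alignments sharing at least 50 bases with its coding sequence. Copies of the 100 bases around each summit were searched in the whole genome, for every pseudogene peak and for every 20th other peak (6822). A peak was at a transcript end if its summit lay at most 200 bp before or 600 bp after one. Sequences were read from the GRCh38 reference with pysam 0.24.0. Shares have 95% Wilson intervals and differences of shares 95% Newcombe intervals, for counting error only.

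The pseudogenes named, 1 peak each, were the 12 with the most reads, the 8 with the most among those with no other match of 90 bases, the 6 with the most of the transcribed type, the 5 tallest in host introns and the 6 parents with the most copies that had a peak. Pseudogenes at exons or ends of other genes were kept apart. The values of 1 marker gene and the copied end of 1 pseudogene are not reported here. Other names served as examples and were chosen after their values were seen. Members, families and lists were chosen with earlier results of these data known. Alternatives were other cutoffs, reaches, windows and definitions of parents and hosts.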

Additional observations from a re-analysis of the deposited data

How the results depend on the processing

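Counts, medians and overall shares of pseudogene peaks were recomputed under 59 alternatives, of which 23 stayed within the counting interval, or for counts within 1.5 times, and 36 did not. With no cutoff on −log10 q, 16.5% of pseudogenes had a peak, the median was 11 reads and the median identity 92.4%, 2.66% of peaks had an A stretch, 70.2% a hexamer and 43.9% a match of 95 bases elsewhere, and 34.3% ended at a copied parental end. With −log10 q of at least 20, 438 peaks were left at 3.83% of pseudogenes, with a median of 27 reads and 96.7% identity. Of these, 89.04% had a hexamer, 69.4% a match elsewhere, 40.2% a host intron and 94.5% a parent with a transcript-end peak, and 62.6% ended at a copied end. Without peaks in exons or at ends of other genes, 11.9% of pseudogenes had a peak and 52.4% of peaks lay in host introns. Counting summits inside the gene alone left 919 peaks and 5.81% of pseudogenes, a reach of 200 bp left 9.60%, and the type without transcript evidence alone had 12.1%. The A stretch was present at 12.7% of peaks with 18 A in 25 and at 9.72% when searched on both sides of the edge. AATAAA alone was present at 42.4%, any hexamer at 39.1% when the window ended at the summit. A match elsewhere was found for 14.2% at 100 bases, 60.7% at 90 bases, and 39.6% for the window ending at the 3′ edge. Protein-coding hosts alone held 37.0%. Taking the parent from the symbol gave 59.6% with a parental transcript-end peak, since 63.3% of peaks have a symbol that names a parent. Limits of 25 and 100 bases gave 34.4% and 40.6% of peaks ending at a copied end. Chosen after seeing the data, the canonical end alone gave 21.0%, and leaving out peaks in introns of their own pseudogene gave 44.1% ending there and 77.7% with a hexamer. Each setting changes which peaks or bases are counted, and the cause of these shifts was not tested further.

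The comparisons by hexamer kept or lost, A run, strand of the host, family, identity and detection of the parent, and the correlation of reads, were not recomputed.

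No paired analysis was possible because each value comes from merged reads of the libraries, and no alternative leaves out a replicate for the same reason. The depth of a library is unknown. The highest summit of the list had 200 reads. The settings listed for the peak caller name no handling of duplicate reads, so whether they were dropped before peak calling is not given. If they were, reads at the summit count distinct read positions, have an upper limit and understate the abundance at tall peaks. This was not tested. The GENCODE release is newer than the study's, so classes of single peaks are those of this release.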

Other observations

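Peaks at 155 pseudogenes (10.9% of those with a peak) also lay in an exon or at a transcript end of a gene that is no pseudogene, so the peak cannot be given to either. The tallest was at RPS27AP5, a copy of the ubiquitin and ribosomal fusion gene RPS27A, with 53 reads at the end of the microRNA gene MIR4426. H3P6, a copy of the histone gene H3-3A, had 49 reads, and PTMAP2, which overlaps MIR1244-2, had 48. RPS4XP16 had 47 reads at an end of INTS6-AS1, and SRP14P1 had 46 at an end of CD27-AS1 and no hexamer. The first 3 matched another place at 98 to 100 of 100 bases, whereas RPS4XP16 and SRP14P1 matched none at 90.

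The pseudogene with the most peaks, ENSG00000286215, held 28. It is a transcribed gene on chromosome 6 annotated over 909387 bp, and its parent by alignment was the intermediate filament gene VIM at 75.5% identity. This gene also weighs on the cytoskeleton family, whose 31 pseudogenes with a peak held 63 peaks with a median of 9 reads.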
